A study of Mus musculus with 4 samples.

Results

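The genes described here are 10 genes of uterine smooth muscle, Acta2, Myh11, Tagln, Cnn1, Des, Myocd, Actg2, Lmod1, Smtn and Myl9, of 21631 protein-coding genes on chromosomes 1 to 19 and X. They were followed through chromatin loops from Hi-C, an assay that ligates and sequences pieces of DNA found near each other in the nucleus. A loop is a pair of segments, its anchors, that the authors called as meeting more often than their surroundings. A loop was assigned to a gene when an anchor overlapped its RefSeq body or the 10 kb on either side of it. By that rule the 4 deposited lists held 92 calls at these genes. They were 32 of 21829 loops in the ERα knockout, 22 of 11752 after progesterone, 22 of 16387 in vehicle replicate 2 and 16 of 9385 in vehicle replicate 3.

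The libraries came from whole uteri of C57BL/6J females more than 10 weeks old, ovariectomised, left for 10 to 14 days, and collected 1 h after an injection. The knockout library (label ERaKO_V, genotype Ex3aERKO, a line without working estrogen receptor alpha) received 100 ul of saline vehicle. The progesterone library (wild type, replicate 2) received progesterone (1 mg, subcutaneous) in a sesame oil carrier of 100 ul. The 2 vehicle libraries (wild type, replicates 2 and 3) received 100 ul of saline into the abdominal cavity, so the progesterone library also differs from them in carrier and route. All animals lacked ovaries. The sources used here do not say whether a library holds 1 animal or a pool, or whether the vehicle replicates were separate animals. The knockout and progesterone have 1 library each, so no test between conditions was made. The lists give positions without contact counts, so depth and loop strength are unknown, and a loop missing from a list may still exist in that tissue. Vehicle replicate 3 has the shortest list and the knockout the longest. Loop positions hold no expression, so the name smooth muscle could not be checked against markers in these files. In whole uterus, fewer muscle cells and fewer loops per muscle cell cannot be told apart.

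The outer wall of the uterus, the myometrium, is layered smooth muscle whose cells contract by sliding myosin along actin filaments. The genes of this apparatus are switched on together by serum response factor (SRF), which binds short DNA sequences called CArG boxes, and by myocardin, the muscle-restricted coactivator that SRF recruits. Loops can bring a gene's start near distant regulatory DNA, or can mark the borders of a folded domain. A loop list alone does not tell these apart.

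Smtn and Myocd had the most loops of the 10 genes, and Tagln, Des and Cnn1 the fewest. Summed over the 4 lists, Smtn had 21 calls, Myocd 17, Acta2 14, Lmod1 12, Myh11 10, Actg2 7, Myl9 5, Cnn1 3, Des 2 and Tagln 1. In the knockout 8 of the 10 genes had at least 1 loop, against 65.1% of all protein-coding genes. After progesterone 9 of 10 did, against 50.0% of all genes. In vehicle replicate 2 the count was 8 of 10, against 57.5%, and in vehicle replicate 3 it was 8 of 10, against 45.3%. The 7 genes Acta2, Myh11, Myocd, Actg2, Lmod1, Smtn and Myl9 had a loop in each of the 4 lists, against 38.8% of all genes, and none of the 10 was without a loop throughout, against 29.7% of all genes. The median number of loops per gene among the 10 was 3.5 in the knockout, 1.5 after progesterone, 2.5 in vehicle replicate 2 and 1.5 in vehicle replicate 3. Over all genes the median was 1, 1, 1 and 0 in the same order of libraries. The 10 genes had a median length of 18.5 kb and all genes one of 17.3 kb, and no closer matching on length or gene density was made.

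**Figure D1:**
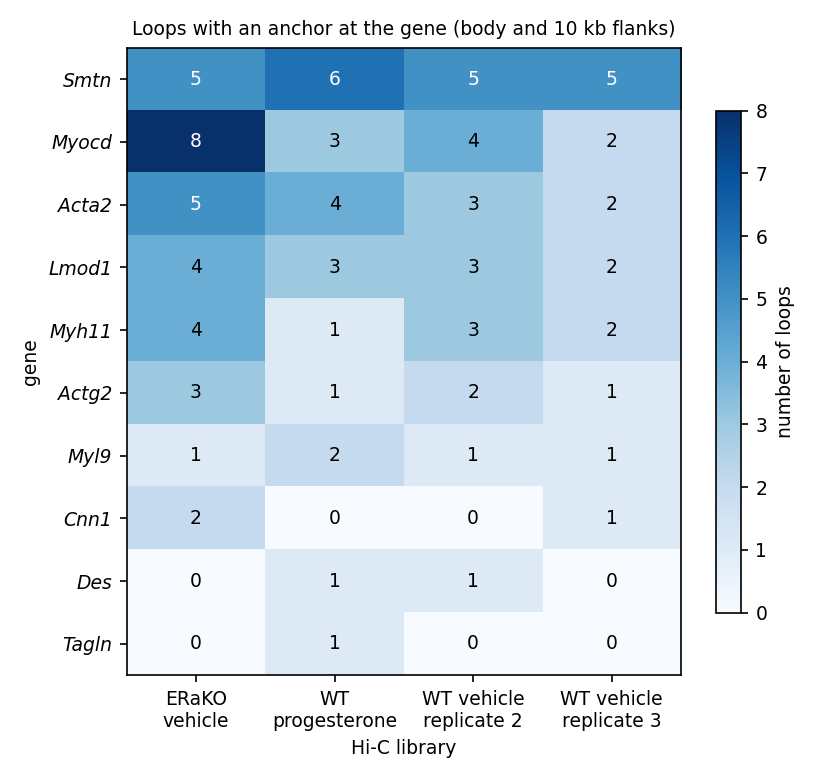
Number of loops with an anchor at each gene (rows, most loops at the top) in each Hi-C library (columns). Smtn had 5 or 6 loops in every library, Myocd had 8 in the knockout and 2 to 4 in the wild-type libraries, and Tagln had 1 loop in the progesterone library alone.

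The number of loops at these genes was also set against the length of each list. Per 1000 loops of a list they numbered 1.47 in the knockout (exact binomial 95% interval 1.00 to 2.07), 1.87 after progesterone (1.17 to 2.83), 1.34 in vehicle replicate 2 (0.842 to 2.03) and 1.70 in vehicle replicate 3 (0.975 to 2.77). All 4 intervals overlap, and they cover counting error only. These loops were short: their median length was 110 kb in the knockout, 125 kb after progesterone, 100 kb in vehicle replicate 2 and 130 kb in vehicle replicate 3. All loops of the same lists had medians of 150, 190, 185 and 200 kb. The mix of anchor sizes also differed. Anchors of 5 kb made up 84.4%, 68.2%, 95.5% and 56.25% of the loops at these genes in that order. They made up 64.8%, 49.6%, 58.7% and 42.1% of all loops. Lengths were not compared within an anchor size or with loops at other genes. No loop joined a pair of the 10 genes with each other. The lists hold only loops within a chromosome, which Des and Lmod1, Cnn1 and Tagln, and Smtn and Myocd share. Each of these pairs lies much farther apart than 850 kb, the longest loop at the 10 genes. The absence thus says little about contact between them. Of the 92 calls, 8 had both anchors at the same gene, 40 had an other anchor that overlaps a different protein-coding gene and 44 had one that overlaps none. The same split was not counted over all loops, so whether it is usual is unknown. The anchor met the gene body in 74 calls and the 10 kb flank alone in 18.

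The strand, and with it the start of a gene, was known for 6 genes, and their loops met the start in some and the far end in others. Only 1 start per gene was used. The start site of Smtn lay in an anchor of 2 loops in the knockout, 2 after progesterone, 3 in vehicle replicate 2 and 3 in vehicle replicate 3. Its end lay in an anchor of 1, 1, 0 and 0 loops in that order. The start site of Myl9 lay in an anchor of 1, 2, 1 and 1 loops in the same order. Start and end are poorly separated at Myl9, which is 6.25 kb long. The 5 kb anchor at its start covers most of the gene. In 1 of the 2 progesterone loops a 25 kb anchor covers the whole gene, its end included. Acta2 and Lmod1 showed the opposite arrangement. Their start sites lay in no anchor of any list, and the end of the gene lay in an anchor of 4 loops in the knockout, 3 after progesterone, 3 in vehicle replicate 2 and 2 in vehicle replicate 3, with the same counts for both genes. For Lmod1 this turns on a bin edge, since its start at 135324813 lies just outside the anchor 135325001 to 135330000 of a progesterone loop. The start site of Des lay in an anchor once, in vehicle replicate 2, and neither the start nor the end of Cnn1 lay in an anchor of any list.

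The 250 bases before the start of Smtn, Myl9, Acta2 and Lmod1 are shown because the start or the end of these genes lay in a loop anchor in every list. The sequences are from RefSeq on GRCm38.p6, the assembly behind mm10, and run 5′ to 3′ along the gene. They lie at chr11:3539293-3539542 on the minus strand, chr2:156775214-156775463 on the plus strand, chr19:34255374-34255623 on the minus strand and chr1:135324563-135324812 on the plus strand. Capitals mark the CArG box of 10 bases, exact or with 1 base departing from it; its pattern reads the same on both strands, so 1 search covers both.
Smtn: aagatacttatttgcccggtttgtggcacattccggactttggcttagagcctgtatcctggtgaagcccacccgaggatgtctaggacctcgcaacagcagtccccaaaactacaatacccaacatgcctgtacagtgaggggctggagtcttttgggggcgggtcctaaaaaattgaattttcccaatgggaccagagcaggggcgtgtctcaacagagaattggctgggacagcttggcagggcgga
Myl9: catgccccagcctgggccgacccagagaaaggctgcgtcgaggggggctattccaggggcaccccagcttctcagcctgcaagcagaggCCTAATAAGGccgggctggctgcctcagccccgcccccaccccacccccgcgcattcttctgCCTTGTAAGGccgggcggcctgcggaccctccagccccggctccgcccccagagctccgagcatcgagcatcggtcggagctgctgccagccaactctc
Acta2: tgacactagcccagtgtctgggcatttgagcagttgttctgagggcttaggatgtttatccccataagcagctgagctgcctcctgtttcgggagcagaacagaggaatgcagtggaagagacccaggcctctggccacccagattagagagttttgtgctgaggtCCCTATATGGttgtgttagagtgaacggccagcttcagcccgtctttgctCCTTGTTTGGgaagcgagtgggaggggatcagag
Lmod1: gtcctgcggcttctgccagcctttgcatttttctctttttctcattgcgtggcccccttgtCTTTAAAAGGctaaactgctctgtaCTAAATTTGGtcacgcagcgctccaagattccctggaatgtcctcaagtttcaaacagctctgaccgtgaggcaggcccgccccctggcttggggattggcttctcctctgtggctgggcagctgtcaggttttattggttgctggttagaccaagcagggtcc
Myl9 held an exact CArG box, which begins 161 bases before the start, and a copy with 1 departure at 99 bases. Acta2 held copies with 1 departure at 84 and 34 bases, and Lmod1 at 189 and 164 bases. No such match lay in the windows of Smtn, Des or Cnn1. Of 27025 promoters in the table, 1.40% held an exact box and 18.9% at least 1 match with no more than 1 departure, against 1 and 3 of the 6 promoters found for these genes. A match is a run of letters and was not tested for binding.

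**Figure D2:**
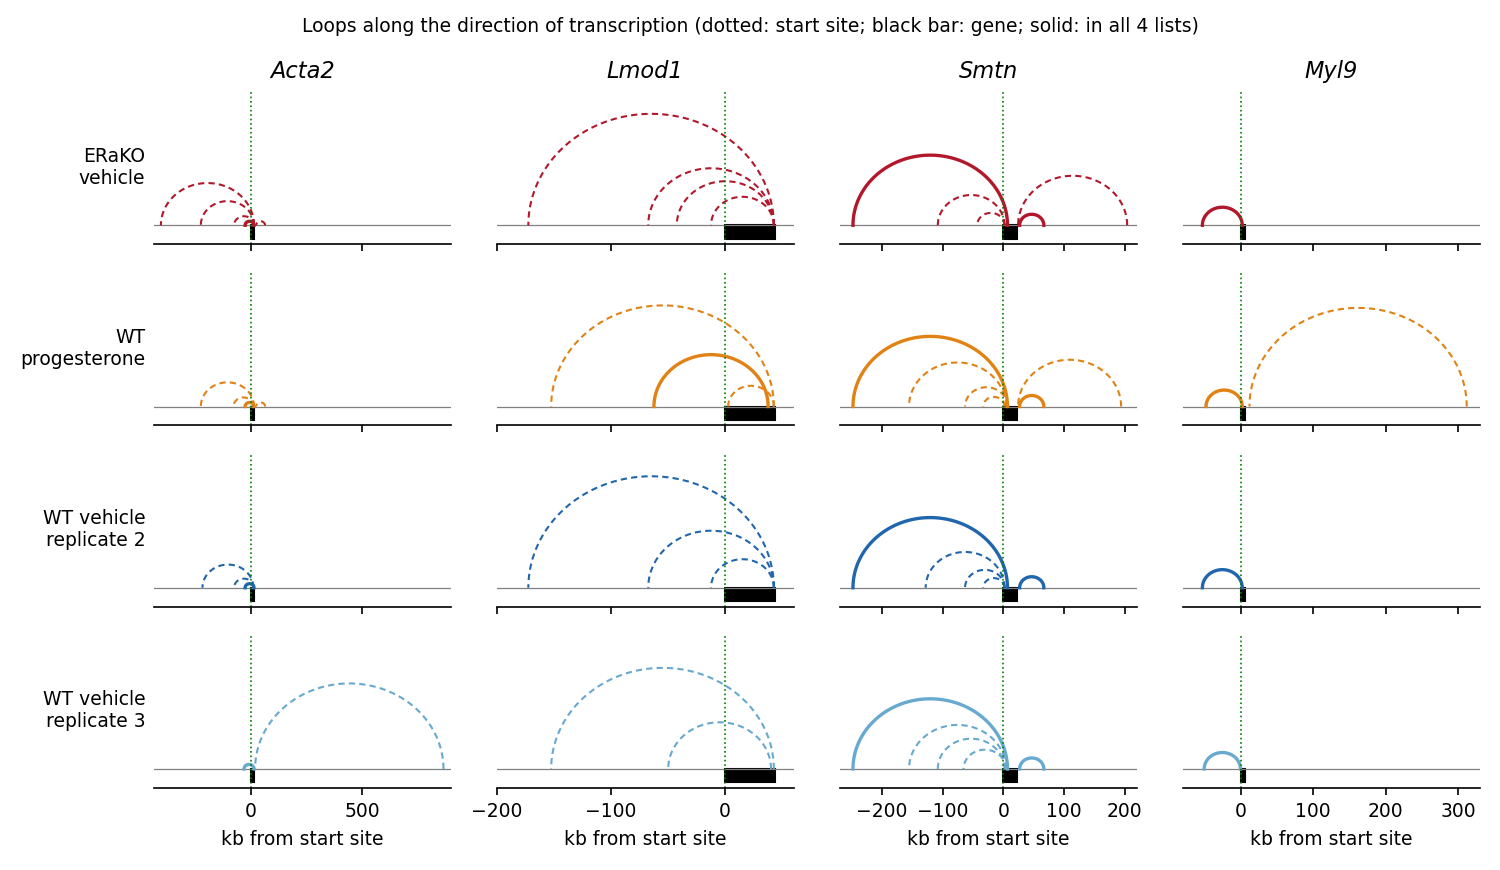
Loops at Acta2, Lmod1, Smtn and Myl9 in each library (rows), drawn as arcs between anchor midpoints against the distance in kb from the start site along the direction of transcription. The black bar is the gene, solid arcs were called in all 4 lists and dashed arcs were not. The arcs of Acta2 and Lmod1 converge on the end of the gene, except the knockout and progesterone arcs across Stambpl1, which meet only the flank of Acta2. Those of Myl9 meet its start, except 1 progesterone arc whose 25 kb anchor covers the whole gene.

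Myocd encodes myocardin. It had 8 loops in the knockout, 3 after progesterone, 4 in vehicle replicate 2 and 2 in vehicle replicate 3, and lies on chromosome 11 from 65173608 to 65269989. A pair of long loops was called in all 4 lists. The first joins a point inside the gene, 65195001 to 65200000, with 65675001 to 65680000 and spans 480 kb in vehicle replicate 2 coordinates. The other joins 65265001 to 65270000, which holds the upper end of the gene, with 65670001 to 65675000 and spans 405 kb. The Myocd loops thus leave the gene on its upper side and end close to each other. No protein-coding gene lies in the far anchors, and the next gene, Map2k4, a kinase gene of stress signalling, begins at 65688244.

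Between these ends, other Myocd loops stopped short. A loop of 200 to 220 kb from near the upper end of the gene to 65470001 to 65485000 was called in the knockout, after progesterone and in vehicle replicate 2, and was not called in vehicle replicate 3. A 365 kb loop to 65630001 to 65635000 was called in the knockout and vehicle replicate 2. The knockout list added 4 Myocd loops found in no other list, of 55, 240, 270 and 440 kb. The 55 kb loop stays within the gene, and the 440 kb loop ends near 65630001, where the 365 kb loop also ends. In the knockout, 1.41% of all genes had more loops than Myocd, against 5.71% after progesterone, 5.67% in vehicle replicate 2 and 8.84% in vehicle replicate 3. Myocd is 96.4 kb long, against a median of 17.3 kb over all genes. These ranks were not adjusted for gene length, and the knockout list was also the longest.

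**Figure D3:**
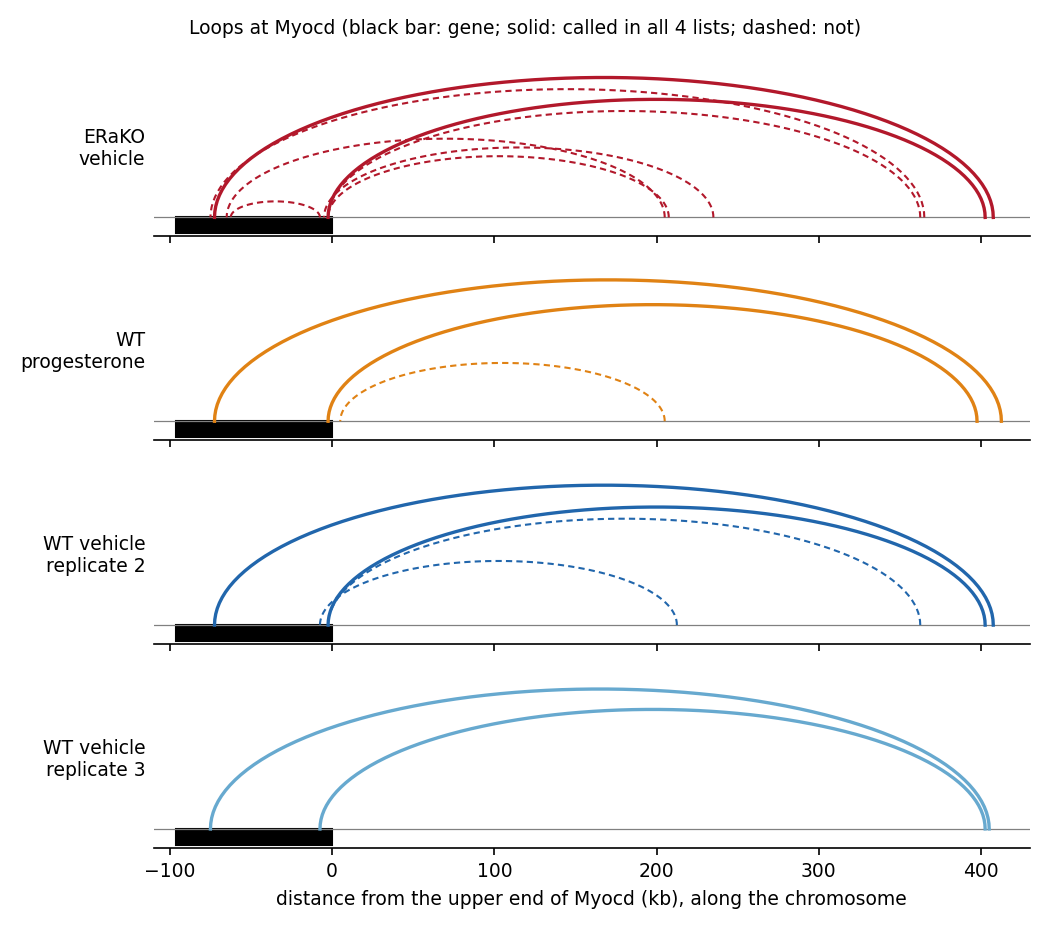
Loops at Myocd in the 4 libraries (rows), as arcs between anchor midpoints against the distance in kb from the upper end of the gene along the chromosome. The 2 solid arcs, of about 400 and 480 kb, recur in every library, and the knockout has 8 arcs against 2 to 4 in the wild-type libraries.

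The smooth muscle actin genes Acta2 and Actg2 encode the thin filament. Acta2 (chromosome 19, 34240336 to 34255585) had 5 loops in the knockout, 4 after progesterone, 3 in vehicle replicate 2 and 2 in vehicle replicate 3. In 12 of its 14 calls the anchor held the bin 34240001 to 34245000, which spans the end of Acta2 and the adjoining end of Stambpl1, a deubiquitinase gene. Stambpl1 was within 10 kb of an anchor in all 14 calls, so these loops cannot be assigned to one of the 2 genes. A 40 kb loop from that bin to 34280001 to 34285000, across Acta2 towards the death receptor gene Fas, was called in all 4 lists, with a far anchor 1 bin higher in vehicle replicate 3. A 90 kb loop to 34330001 to 34335000, just beyond Fas, and a loop of 230 to 240 kb to the region of Ch25h, a cholesterol hydroxylase gene, were called in the knockout, after progesterone and in vehicle replicate 2. A 40 kb loop across Stambpl1, with an anchor in the flank of Acta2, was called in the knockout and after progesterone. A 420 kb loop to Ifit1bl1, an interferon-induced gene, was called in the knockout alone, and an 850 kb loop with 25 kb anchors in vehicle replicate 3 alone.

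Actg2 (chromosome 6, 83512909 to 83536251) had 3 loops in the knockout, 1 after progesterone, 2 in vehicle replicate 2 and 1 in vehicle replicate 3. In 6 of its 7 calls the anchor included 83505001 to 83510000, outside the gene and across one end of Dguok, a mitochondrial kinase gene. A loop of 150 to 160 kb from there, or from the next bin, to Bola3, a gene of iron-sulfur cluster assembly, was called in all 4 lists. A 65 kb loop to Tet3, a 5-methylcytosine oxidase gene, was called in the knockout and vehicle replicate 2, and a 385 kb loop to Ino80b and Wbp1 in the knockout alone. With the gene body alone, without flanks, only the 155 kb loop of vehicle replicate 2 remains at Actg2. Dguok was within 10 kb of an anchor in all 7 calls, so these loops cannot be assigned to either gene alone.

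The motor genes are Myh11, the smooth muscle myosin heavy chain, and Myl9, a regulatory light chain. Myh11 (chromosome 16, 14194527 to 14292188) had 4 loops in the knockout, 1 after progesterone, 3 in vehicle replicate 2 and 2 in vehicle replicate 3. A 255 kb loop from 14235001 to 14240000, inside the gene, to 14490001 to 14495000, beyond the transporter gene Abcc1, was called in all 4 lists. It was the single Myh11 loop of the progesterone list, there with 10 kb anchors and 260 kb long. A 35 kb loop between 14255001 to 14260000 and the upper end of the gene, at 14290001 to 14295000, was called in the knockout and in both vehicle lists and was not called after progesterone. An 85 kb loop from that upper end into Abcc1 was called in the knockout and vehicle replicate 2, and a 60 kb loop within the gene in the knockout alone.

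Myl9 (chromosome 2, 156775408 to 156781657) had 1 loop in the knockout, 2 after progesterone, 1 in vehicle replicate 2 and 1 in vehicle replicate 3. The loop shared by all 4 lists joins its start, at 156775001 to 156780000, with 156720001 to 156725000 in Dlgap4, a gene of a synaptic scaffold protein, and is 50 to 55 kb long. The Myl9 promoter shown above, with the exact CArG box, lies in that anchor. The second progesterone loop spans 300 kb with anchors of 25 kb, ends at Samhd1, Soga1 and Tldc2, and was in no other list.

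Lmod1 and Smtn encode actin-binding proteins of smooth muscle: leiomodin, which starts actin filaments, and smoothelin, a marker of contractile cells. Lmod1 (chromosome 1, 135324813 to 135368065) had 4 loops in the knockout, 3 after progesterone, 3 in vehicle replicate 2 and 2 in vehicle replicate 3. All 12 calls used an anchor with the bin 135365001 to 135370000 at the end of the gene, and in all 12 Shisa4, the next gene along, was within 10 kb of an anchor. The other anchors lay on the side of the gene start. They reached Elf3, an epithelial ETS factor gene, in the knockout and vehicle replicate 2 at 110 kb, and Rnpep, an aminopeptidase gene, in the knockout at 85 kb and in vehicle replicate 3 at 90 kb. A progesterone loop with anchors of 25 kb covered both Elf3 and Rnpep, and it alone of the Lmod1 loops was matched in all 4 lists. A 215 kb loop to Arl8a, a lysosomal GTPase gene, was called in the knockout and vehicle replicate 2, and a 195 kb loop to 135170001 to 135175000 after progesterone and in vehicle replicate 3. A 55 kb loop to Timm17a, a mitochondrial import gene just before the start of Lmod1, was called in the knockout and vehicle replicate 2. The 40 kb loop within Lmod1, from 135325001 to 135330000, was called after progesterone alone. That turns on the matching limit. The 55 kb loop has the same upper anchor, and its lower anchor ends at 135315000, just over 10 kb away.

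Smtn (chromosome 11, 3517522 to 3539292) had 5 loops in the knockout, 6 after progesterone, 5 in vehicle replicate 2 and 5 in vehicle replicate 3, the narrowest range among the genes with more than 2 loops in a list. A 255 kb loop from 3530001 to 3535000, inside the gene, to 3785001 to 3790000 in Osbp2, an oxysterol-binding protein gene, had the same coordinates in all 4 lists. So did a 40 kb loop from 3470001 to 3475000 to 3510001 to 3515000, whose upper anchor overlaps one edge of Selenom, a selenoprotein gene next to the end of Smtn. A loop of 35 to 45 kb from the start of the gene was called in the knockout, after progesterone and in vehicle replicate 2. From the start or the adjoining bin, a loop of 65 to 70 kb to 3600001 to 3605000 was called after progesterone and in both vehicle lists and was not called in the knockout. The 45 kb knockout loop from the start ends at 3580001 to 3585000, and with 25 kb added to anchors the vehicle loop counts as matched. Loops to anchors that overlap Morc2a, a chromatin ATPase gene, were 110 kb long in the knockout and vehicle replicate 3, 130 kb in vehicle replicate 2, and 160 kb after progesterone and in vehicle replicate 3. A loop of 170 to 180 kb to Pik3ip1, a gene of a PI3-kinase inhibitor, was called in the knockout and after progesterone.

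Cnn1, Tagln and Des had few anchors of their own. Loops of up to 1 Mb enclosed Cnn1 and Des with their flanks in each list, as they did Smtn, 3 of the 10 genes against 26.9% of all genes. Each of the 10 was enclosed in at least 1 list, against 57.7% of all genes. By library, 6 were enclosed in the knockout (50.9% of all genes), 4 after progesterone (36.3%), 8 in vehicle replicate 2 (45.2%) and 5 in vehicle replicate 3 (31.6%). Cnn1 (chromosome 9, 22099221 to 22109221), the calponin gene, had 2 loops in the knockout, 0 after progesterone, 0 in vehicle replicate 2 and 1 in vehicle replicate 3, all in its flanks. The neighbouring gene Ecsit was within 10 kb of an anchor in all 3 calls, so these loops cannot be assigned to either gene alone. Within 1 Mb, loops that enclosed Cnn1 and its flanks numbered 1 in the knockout, 2 after progesterone, 3 in vehicle replicate 2 and 1 in vehicle replicate 3. Tagln (chromosome 9, 45929628 to 45936058), which encodes the actin-binding protein transgelin, had its 1 loop after progesterone, 35 kb long from Pcsk7 at 45910001 to 45915000 to Sidt2 at 45945001 to 45950000. That loop was matched in all 4 lists: in the other lists its upper anchor was 45950001 to 45955000, 13.9 kb from the gene and so outside the 10 kb flank. There it spans 40 kb in the knockout, 45 kb in vehicle replicate 2 and 40 kb in vehicle replicate 3. The body of Tagln, without its flanks, thus lay inside a matched small loop in each library, and the count of 0 or 1 turns on 1 bin.

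Des (chromosome 1, 75360292 to 75368579) encodes desmin, the intermediate filament protein of muscle. It had 0 loops in the knockout, 1 after progesterone, 1 in vehicle replicate 2 and 0 in vehicle replicate 3. The vehicle replicate 2 loop joins the start of Des with the neighbouring muscle kinase gene Speg at 75395001 to 75400000, 35 kb away, and the progesterone loop runs from 75340001 to 75345000 to Speg at 75375001 to 75380000. A 125 kb loop from 75340001 to 75345000 to 75465001 to 75470000, which encloses Des, Speg and Gmppa, had the same coordinates in all 4 lists. An inner loop of 50 to 55 kb from the same lower anchor was called in the knockout and both vehicle lists and was not called after progesterone. The progesterone loop to Speg also starts at that lower anchor. Its far anchor ends at 75380000, just over 10 kb from the far anchor of both vehicle lists, 75390001 to 75400000. The matching limit alone thus separates the progesterone call from the vehicle calls. With flanks of 25 kb, 10 of 10 genes were at loops in the knockout, 9 after progesterone, and 10 in each vehicle list. The share of all protein-coding genes was not counted with flanks of 25 kb, and wider flanks raise it too.

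To ask which loops differ with the knockout, loops of these genes were matched between lists, a match being a loop with both anchors no more than 10 kb away. In vehicle replicate 2 coordinates, 8 of 22 loops were called in all 4 lists (36.4%, exact 95% interval 17.2 to 59.3, against 39.0% of all loops). They belong to 6 genes: 2 each to Myocd and Smtn, and 1 each to Acta2, Myh11, Actg2 and Myl9, where 33.8% of all genes had such a loop. With vehicle replicate 3 left out, 13 loops were in each of the other 3 lists. Of the 10 loops in both vehicle lists, 1 was not called in the knockout, the 65 kb loop of Smtn (10.0%, 0.253 to 44.5, against 10.0% of all loops). That loop gave 1 of the 10 genes, against 6.47% of all genes. Neither vehicle list held 11 of the 32 knockout loops (34.4%, 18.6 to 53.2, against 40.6% of all knockout loops). They lay at 6 genes, against 44.2% of all genes: 4 at Myocd, 2 each at Acta2 and Cnn1, and 1 each at Myh11, Actg2 and Smtn. Each interval holds the value of all loops. The counts of 1 and 11 were 4 and 21 with vehicle replicate 2 left out, and 3 and 13 with vehicle replicate 3 left out. With a list left out, a loop had only 1 vehicle list to be in or absent from, a looser condition.

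The same matching was made for progesterone. Of the 10 loops in both vehicle lists, 1 was not called after progesterone, the 35 kb loop within Myh11 (10.0%, 0.253 to 44.5, against 15.1% of all loops). It gave 1 of the 10 genes, against 9.64% of all genes. Neither vehicle list held 5 of the 22 progesterone loops (22.7%, 7.82 to 45.4, against 14.8% of all progesterone loops, a value inside that interval). They lay at 5 genes, Acta2, Des, Lmod1, Smtn and Myl9, with 1 loop each, against 12.7% of all genes. The Acta2 loop (40 kb, across Stambpl1) and the Smtn loop (to Pik3ip1) were also in the knockout list. The Des, Lmod1 and Myl9 loops were matched in no other list. For Des and Lmod1 this turns on the matching limit. Each has 1 anchor that overlaps an anchor of a vehicle replicate 2 loop, and the other anchors lie just over 10 kb apart. With 25 kb added to anchors the count of 5 was 3. Between the vehicle lists themselves, 12 of the 22 replicate 2 loops were not called in replicate 3 (54.5%, 32.2 to 75.6, against 50.8% of all), and 6 of the 16 replicate 3 loops were not called in replicate 2 (37.5%, 15.2 to 64.6, against 14.3% of all, a value just below that interval; neighbouring loops are not independent). The progesterone share of 22.7% was thus below both vehicle shares, which come from comparison with 1 list where the progesterone loops had 2 lists to match. The counts of 1 and 5 were 4 and 9 with vehicle replicate 2 left out, 8 and 7 with vehicle replicate 3 left out, and 4 and 10 with 0 kb added to anchors. Leaving out a vehicle list loosened the condition here too.

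**Figure D4:**
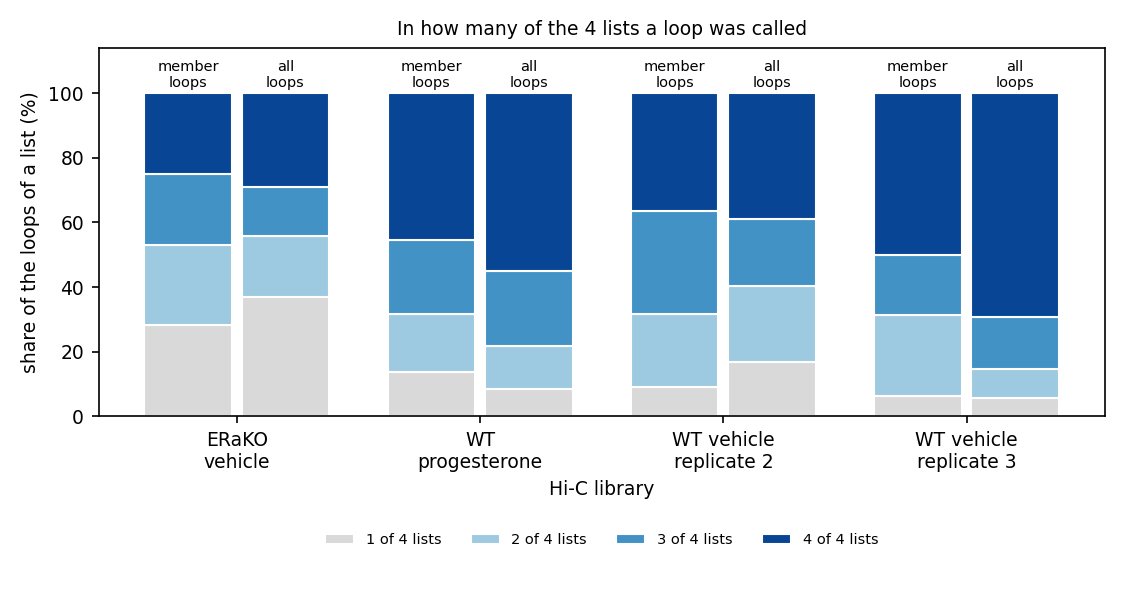
Share of the loops of each library (percent) that were called in 1, 2, 3 or all 4 lists, for loops at the 10 genes (left bar of each pair) and for all loops of that library (right bar). Loops called in all 4 lists made up 8 of the 32 knockout loops at these genes and 8 of the 16 of vehicle replicate 3, against 29.1% and 69.4% of all loops.

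Most other genes of smooth muscle contraction were at loops. Of 32 such genes, which include channels and SRF cofactors, 31 had a loop in the knockout, 29 after progesterone, 31 in vehicle replicate 2 and 29 in vehicle replicate 3, and 27 had one in each list. Of all protein-coding genes 65.1%, 50.0%, 57.5% and 45.3% had a loop in the same order of libraries, and 38.8% had one in each list. The median length of the 32 genes was 69.4 kb, against 17.3 kb over all genes. The lists were not matched on length. Kcnma1, a potassium channel gene 713 kb long, had 19, 9, 12 and 6 loops in that order of libraries. Synpo2, an actin-binding protein gene, had 10, 8, 8 and 7. Gja1, the connexin gene of the gap junctions that couple myometrial cells, had 9, 8, 8 and 5 although it is 13.1 kb long. Actn1, an actinin gene, had 4, 5, 7 and 5, and Pgm5, a gene of an adhesion-plaque protein, had 7, 4, 6 and 4. Srf had 2, 1, 1 and 1, and its cofactor gene Mrtfb 4, 4, 4 and 3; these were named after their values were seen.

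Paralogues of these genes, among them Lmod2, Lmod3 and Smtnl1, and a list of heart and skeletal muscle genes were counted by the same rule. Of 15 non-muscle and other paralogues, such as Actb, Myh9 and Cnn2, 13 had a loop in the knockout, 11 after progesterone, 11 in vehicle replicate 2 and 8 in vehicle replicate 3, and 7 had one in each list. Myl12b, a light chain gene, had 6, 3, 3 and 3 loops, and Cnn2, a calponin gene, 5, 3, 3 and 3. Of 16 genes of heart and skeletal muscle, 7 had a loop in the knockout, 6 after progesterone, 8 in vehicle replicate 2 and 6 in vehicle replicate 3. The troponin gene Tnni3 had 6, 2, 4 and 3 loops, and Tnni2 had 4, 3, 4 and 3. In that group 8 genes, among them Actc1, Myod1, Myog, Myh7 and Nkx2-5, had a loop in no list; the genes without loops were named after their values were seen. The group's median length was 8.41 kb, the shortest of the groups compared, and 6 of its 16 genes had a loop in each of the 4 lists (37.5%, against 38.8% of all genes). The 8 genes with a loop in no list compare with 29.7% of all genes, and the single-list shares ran from 37.5% to 50.0%, against 45.3% to 65.1%. The differences between these lists were not tested.

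**Figure D5:**
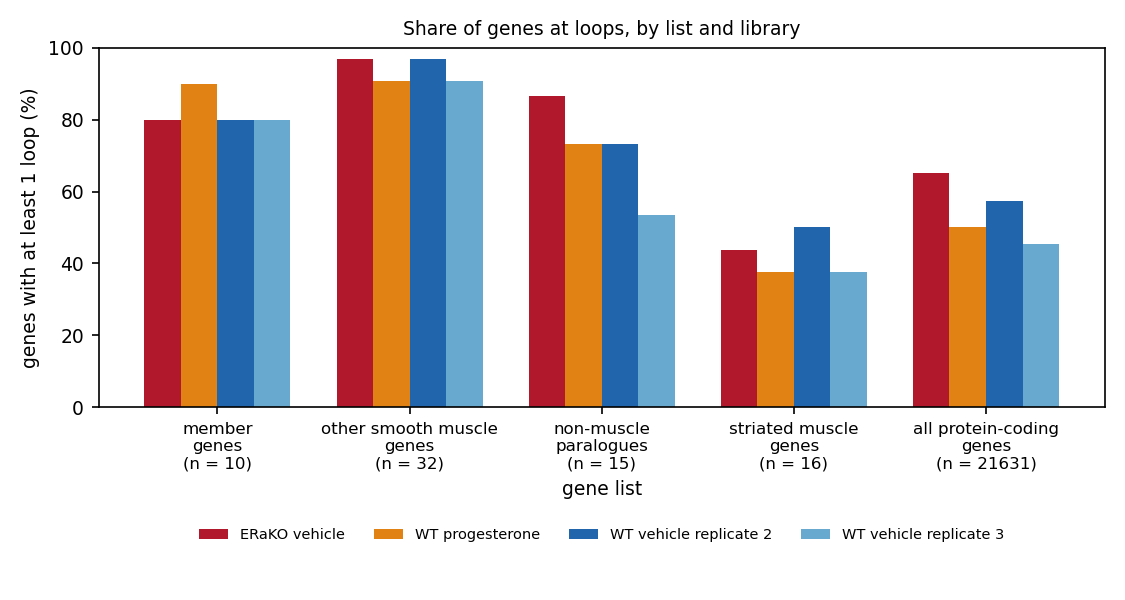
Percent of the genes of each list with at least 1 loop, by library (bars from left to right: knockout, progesterone, vehicle replicates 2 and 3). Of the 10 genes 8 or 9 were at loops in each library, and of the other smooth muscle genes 90.6% to 96.9%. The shares were 53.3% to 86.7% of non-muscle and other paralogues, 37.5% to 50.0% of striated muscle genes and 45.3% to 65.1% of all protein-coding genes. The other smooth muscle genes had a median length of 69.4 kb and all genes one of 17.3 kb, and the lists were not matched on length.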

How the data were processed

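Per the labels' protocols, an Arima kit was used for Hi-C. The authors deposited 1 loop list per library with 6 columns and no header, holding the positions of both anchors in bases on mm10; Juicer 1.5.6 and mm10 are named in the submitters' processing notes. How loops were called is not stated in the labels or file headers, and no contact counts were used, so depth is unknown. Anchors are 5, 10 or 25 kb, and starts were written from 1. Genes, starts and promoters came from RefSeq tables of GRCm38.p6; 10 of 10 genes and 6 of their promoters matched. Loops were matched when anchors lay no more than 10 kb apart, and shares carry exact (Clopper-Pearson) 95% intervals. The genes and lists were chosen with earlier results of these data known. All 10 genes were named, with loops by their class (in all 4 lists, or differing between lists), up to 3 a gene by finest anchor, with some added beyond that rule after their values were seen. Matching and assignment were tested on simulated data. Python 3.11.15, numpy 2.4.6, pandas 2.3.3, scipy 1.17.1 and matplotlib 3.10.9 were used.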

Additional observations from a re-analysis of the deposited data

How the results depend on the processing

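Of 77 values recomputed under 8 alternatives, 56 stayed within 1.5 times the value reported and 21 moved further. None of the counts of the 10 genes at loops, or of their loops per library, moved further, though some reached that limit. With the gene body alone, 6 of the 10 genes were at loops in the knockout and 6 after progesterone, against 8 and 9. In vehicle replicates 2 and 3 they numbered 8 and 6, against 8 and 8. Loops at these genes in vehicle replicate 2 rose from 22 to 33 with flanks of 25 kb. The count of 8 loops called in all 4 lists became 3 with 0 kb and 13 with 25 kb added to anchors, and ran from 9 to 13 when 1 vehicle library was left out. The 1 vehicle loop not called in the knockout became 2 with flanks of 25 kb, 0 with 25 kb added to anchors, and 3 to 4 without 1 vehicle library. The 1 vehicle loop not called after progesterone became 2 with flanks of 25 kb, 4 with 0 kb and 2 with 25 kb added, and 4 to 8 without 1 vehicle library. The 11 knockout loops in neither vehicle list became 7 with the gene body alone, 18 with flanks of 25 kb, 7 with 25 kb added, and 13 to 21 without 1 vehicle library. The 5 progesterone loops in neither vehicle list became 3 with the gene body alone, 10 with 0 kb and 3 with 25 kb added, and 7 to 9 without 1 vehicle library. Non-muscle and other paralogues at loops in all 4 lists rose to 13 with flanks of 25 kb, against 7. Wider flanks and tolerances take in more loops and more matches by construction. Leaving out a vehicle list also loosens the condition of a call in both or in neither. That alone tends to raise the counts built on it. Stricter calling thresholds need loop strengths, which were not used here. No paired analysis was possible because the groups share only replicate number 2.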

Other observations

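Very long loops also enclosed some of the 10 genes. Myl9 lay inside 1 loop of 159180 kb after progesterone and 1 of 159170 kb in vehicle replicate 3, on chromosome 2, and the shortest loop around Myocd in vehicle replicate 2 spanned 54870 kb. The longest loop with an anchor at any of the 10 genes spanned 850 kb.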
